A study of Mus musculus with 25 samples.

Results

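Matrix metalloproteinases (MMPs) and their tissue inhibitors (TIMPs) were examined in mouse heart as 10 genes chosen by symbol, of 35969 genes with a matched transcript. The genes were Mmp2, Mmp3, Mmp14, Mmp15, Timp1, Timp2, Timp3, Timp4, Adamts1 and Adamts2, and all 10 passed a filter on low values (a mean scaled TPM of at least 1), as did 11984 genes in all. TPM is a transcript's abundance corrected for its length and rescaled to a total of 1000000 in each library, and scaled TPM divides it by a factor that aligns the libraries. The level of a gene is the sum over its transcripts.

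MMPs are zinc endopeptidases that cut collagens and other matrix proteins, and most are made as inactive precursors. Mmp14 is anchored in the cell membrane and, with Timp2 as a bridge, is known to activate the precursor of Mmp2, while Timp2 in excess blocks the enzymes. ADAMTS proteases are a related secreted family, in which Adamts1 cuts proteoglycans and Adamts2 removes the amino propeptide of fibrillar procollagens. In heart, fibroblasts are known as a main source of Mmp2 and of collagen.

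Polyadenylated RNA was sequenced from 25 male mice, 5 in each of 5 groups. WT littermates and GPx4+/- mice, which lack 1 working copy of Gpx4 (glutathione peroxidase 4), were on a C57BL6/J background and 8 to 10 weeks old at the start. They ate standard chow (WT CNTL and GPx4+/- CNTL) or a high-fat, high-sucrose diet (WT HFHS and GPx4+/- HFHS) for 16 weeks, and a further WT HFHS group also drank 80 mM carnosine, a histidine-containing dipeptide, from week 7 (WT HFHS + Carnosine). All mice were fasted and given dextrose or saline before euthanasia, and which mouse received which is not given. Carnosine-treated GPx4+/- mice were not analysed here.

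TPM keeps no read depth, so no counting error can be given for any value. Gpx4 was at 251 to 383 scaled TPM in the 10 GPx4+/- libraries and at 591 to 778 in the 15 WT libraries. The samples are labelled as heart, and the extraction protocol names left ventricular tissue, but the summed level of 10 atrial cardiomyocyte markers was above 1000 scaled TPM in 4 mice, namely WT CNTL replicate 3 at 4833, GPx4+/- CNTL replicate 1 at 7711, GPx4+/- CNTL replicate 2 at 1579 and GPx4+/- HFHS replicate 4 at 2867. The sum of 10 endocardium, vein and valve markers was 200.1 in WT CNTL replicate 3 and 235.9 in WT HFHS replicate 4, and the sum of the hepatocyte markers was 1345 in GPx4+/- CNTL replicate 2 and at most 113.7 in the other mice. The sum of 10 cardiomyocyte markers was between 42500 and 52170 scaled TPM in every library.

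The coding sequences below show what these proteins have in common, since the TIMPs act on the very site that defines the proteases. They were read from the GENCODE M21 transcript with the highest mean level among each gene's protein coding transcripts and mapped to GRCm38. In the 6 proteases, capitals mark the codons of the 3 histidines that hold the catalytic zinc.
Mmp2: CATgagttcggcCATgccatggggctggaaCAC
Mmp3: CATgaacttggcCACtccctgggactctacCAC
Mmp14: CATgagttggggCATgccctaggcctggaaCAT
Mmp15: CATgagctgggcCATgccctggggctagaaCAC
Adamts1: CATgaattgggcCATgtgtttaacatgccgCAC
Adamts2: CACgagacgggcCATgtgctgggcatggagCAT

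The Mmp2 site lies in exon 8 of 13 (chr8:92839279-92839311, plus strand). Those of Mmp3 (chr9:7449775-7449807), Mmp14 (chr14:54437627-54437659) and Mmp15 (chr8:95368585-95368617) each lie in exon 5 of 10, all on the plus strand. In Adamts1 (chr16:85799191-85799545, minus strand, exons 3 and 4 of 9) and Adamts2 (chr11:50775403-50776134, plus strand, exons 7 and 8 of 22) an intron divides the site. Mmp2 shared 29 of 33 bases with Mmp15, 27 with Mmp14, 23 with Mmp3, 22 with Adamts2 and 20 with Adamts1.

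In the 4 TIMPs, capitals mark the codons of the first and the third residues of the mature inhibitor, the cysteines at the end of the protein that is inserted into the enzyme's active site.
Timp1: TGTagcTGTgccccaccccaccca
Timp2: TGCagcTGCtccccggtgcacccg
Timp3: TGCacaTGCtctcccagccatccc
Timp4: TGCagcTGTgcgcctgcgcacccc

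The stretch lies in exon 2 of 6 in Timp1 (chrX:20871111-20871134, plus strand). It lies in exon 1 of 5 in Timp2 (chr11:118354989-118355012, minus strand), Timp3 (chr10:86300923-86300946, plus strand) and Timp4 (chr6:115251668-115251691, minus strand). Timp4 shared 18 of 24 bases with Timp1, 18 with Timp2 and 14 with Timp3. Of the inhibitor genes, 3 lie inside a synapsin gene on the opposite strand, Timp1 in Syn1, Timp3 in Syn3 and Timp4 in Syn2. The library kit keeps strand, but whether the quantification used it is not given in the sources used here. Syn1 was at a mean of 0.0919 and Syn3 at 0.384 scaled TPM, and Syn2 was at 2.66.

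The inhibitors Timp3 and Timp2 were the most abundant of the 10 genes, and Timp1 was the least. Timp3, the inhibitor that binds to the matrix, had a mean level of 103 ± 19.7 scaled TPM (SD, n = 25) and Timp2 had 41.1 ± 10.2, and this order held in all 25 mice. Mmp15, a membrane-bound MMP, was at 25.0 ± 2.47, Mmp2, also called gelatinase A, at 24.6 ± 5.80 and Timp4, an inhibitor known for its expression in heart, at 22.7 ± 4.01. These genes could not be ordered, since Mmp15 was above Mmp2 in 14 of 25 mice and Mmp2 above Timp4 in 13 of 25.

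Lower levels were found for the other five genes. Adamts1 was at 12.7 ± 3.06 scaled TPM and Mmp14 at 6.21 ± 1.46, each above the next gene in every mouse. Adamts2 was at 4.61 ± 1.19, Mmp3, also called stromelysin-1, at 4.11 ± 2.22, and Timp1, an inducible inhibitor, at 3.21 ± 1.99. Adamts2 exceeded Mmp3 in 16 of 25 mice and Mmp3 exceeded Timp1 in 18 of 25, so these levels overlapped. By their mean over all mice, Timp3 stood at percentile 93.8 of the 11984 tested genes and Timp1 at percentile 21.2. The summed level of the 4 MMPs was 0.268 to 0.583 of the summed level of the 4 TIMPs, with a median ratio of 0.343.

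**Figure D1:**
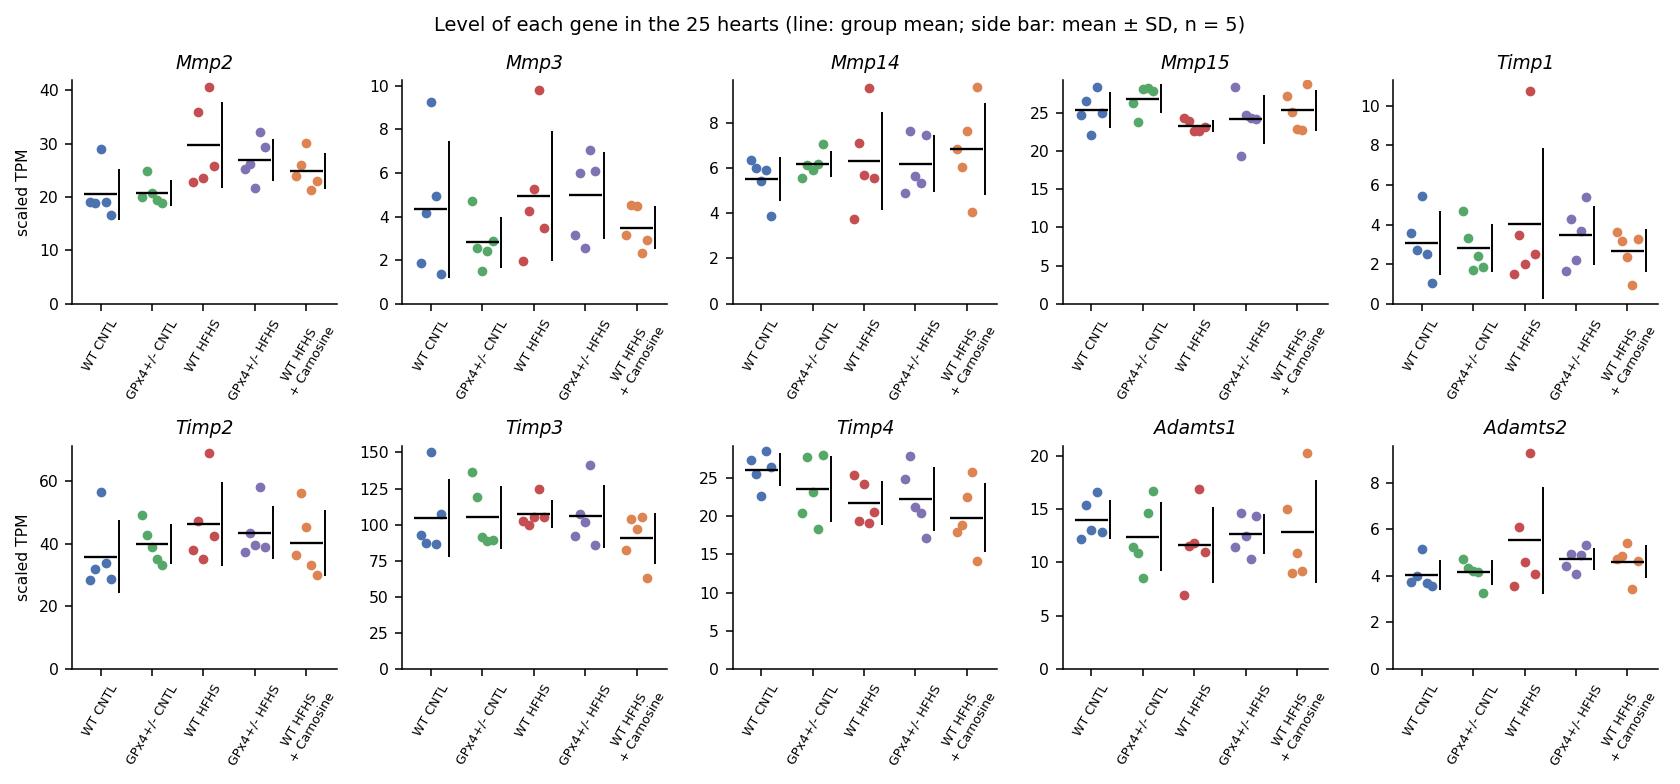
Scaled TPM of each of the 10 genes (vertical axis, from 0) in every mouse (1 point each) of the 5 groups, with the group mean as a line and the mean ± SD as a side bar, n = 5. Mmp2 sits higher in the 2 HFHS groups without carnosine (group means of 29.8 and 27.0) than on CNTL (20.5 and 20.8), while Timp1 and Mmp3 vary several-fold within a group.

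The genes differed in how evenly they were expressed among mice of one group. In the 5 WT HFHS mice, Mmp15 was the most even, at 22.6 to 24.4 scaled TPM. Timp1 was the least even there, at 1.51 to 10.8 with a median of 2.50. Mmp3 ranged from 1.37 to 9.26 among WT CNTL mice. Such spread limits what a comparison of 5 with 5 mice can detect for Timp1 and Mmp3.

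Some genes drew their level from more than 1 transcript. Mmp3 has 1 annotated transcript, and the main transcript gave 98.8% of the Timp3 level, 98.6% of Mmp15, 94.9% of Mmp2, 93% of Mmp14 and 89.3% of Timp2. The 2 Timp4 transcripts gave 65.1% and 34.9%. In Adamts1, 73.6% came from Adamts1-201 and 24.6% from Adamts1-202. In Adamts2, 31.5% came from a transcript annotated as not coding. The share of Timp1-201 in the Timp1 level ran from 18.8% to 82.6% among mice, with group medians of 39.3% in WT CNTL and 76.8% in GPx4+/- HFHS, so the split of that low gene between its 2 transcripts was not steady.

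The first question was whether HFHS diet moved the proteases or their inhibitors. Over both genotypes, Mmp2 rose in HFHS hearts, and it was the only one of the 10 genes to pass the test. In WT CNTL mice, Mmp2 was at 19.1, 18.8, 28.9, 19.2 and 16.6 scaled TPM. In WT HFHS mice it was at 22.9, 36.04, 23.6, 40.7 and 25.8. Replicate 3 was the highest of the WT CNTL mice and overlapped the WT HFHS range, and the other 4 were below all WT HFHS mice. In GPx4+/- CNTL mice, Mmp2 was at 20.0, 24.9, 20.8, 19.4 and 18.9 scaled TPM. In GPx4+/- HFHS mice it was at 25.3, 26.1, 21.7, 32.2 and 29.5. The groups again overlapped, with 4 of 5 GPx4+/- HFHS mice above all GPx4+/- CNTL mice.

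Over both genotypes, the log2 fold change of Mmp2 was 0.44 ± 0.11 (SE, 10 mice per diet; 95% confidence interval 0.20 to 0.67; 1.36-fold), with an adjusted p of 0.0201 by limma, adjusted over all 11984 genes. All 10 HFHS mice were above the CNTL median of their genotype. An exact permutation test of this gene alone, two-sided and within genotype, gave p = 0.00208. The count of 1 in 10 stands beside 8.33% of all tested genes called in this comparison (998 genes). Of those, 56.2% were higher on HFHS, against 19.9% of 714 genes called with TPM as deposited, a scaling under which Mmp2 was higher by 0.39 and did not pass (adjusted p = 0.0899, limma). Median log2 fold changes were 0.14 for the 10 genes and -0.002 for all tested genes.

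Within each genotype Mmp2 did not pass the adjusted threshold. The log2 fold change was 0.51 in WT (95% confidence interval 0.18 to 0.85; adjusted p = 0.112, limma; exact permutation p = 0.0556) and 0.36 in GPx4+/- mice (0.03 to 0.69; adjusted p = 0.227; exact permutation p = 0.0159). The smallest p that 5 against 5 mice allow in this two-sided test is 0.00794. None of the 10 genes was called in WT, where 1.18% of all tested genes were, and none in GPx4+/- mice, where 3.34% were. Without WT CNTL replicate 3, Mmp2 passed in WT, with a log2 fold change of 0.64 (adjusted p = 0.0356, limma). The interaction of diet and genotype was -0.15 for Mmp2 (95% confidence interval -0.62 to 0.32), and 0 genes of 11984 passed that test (0% called; 856 had an unadjusted p under 0.05). With 1 mouse left out the Mmp2 interaction ran from -0.281 to -0.033, and 1 gene passed without WT CNTL replicate 3.

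Markers of other cell types were set beside Mmp2. The sum of 10 fibroblast markers (Pdgfra, Tcf21, Dcn, Lum, Col1a1, Col1a2, Col3a1, Gsn, Dpt and Vtn), all 10 detected, was mostly Gsn (60.5%) and Dcn (23.0%). It ran from 865 to 1738 scaled TPM in the WT CNTL mice and from 829 to 1486 in GPx4+/- mice on CNTL, and from 1094 to 1855 and from 1016 to 1837 in the same genotypes on HFHS. It was higher by 0.27 on the log2 scale on HFHS over both genotypes (exact permutation p = 0.0952), and the cardiomyocyte sum was lower by 0.115 (a log2 difference of -0.115; exact permutation p = 0.0101). The sum of 10 macrophage markers, 9 of which had a mean of at least 1, ran from 111 to 177 scaled TPM in WT CNTL and from 138 to 222 in WT HFHS mice, and from 133 to 201 and from 150 to 198 in GPx4+/- mice on these diets. It differed by 0.21 on the log2 scale on HFHS over both genotypes (exact permutation p = 0.0577), and its part in the Mmp2 values was not tested. With the fibroblast sum as a covariate, the log2 fold change of Mmp2 was 0.27 and passed (adjusted p = 0.0372, limma). With the mean log2 level of the same 10 markers as a covariate, which weights them equally, it was 0.15 and did not pass (adjusted p = 0.0999). Without the 4 mice with high atrial markers it was 0.505 (adjusted p = 0.0126). In whole tissue, more cells of a type and more RNA per cell cannot be told apart.

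**Figure D2:**
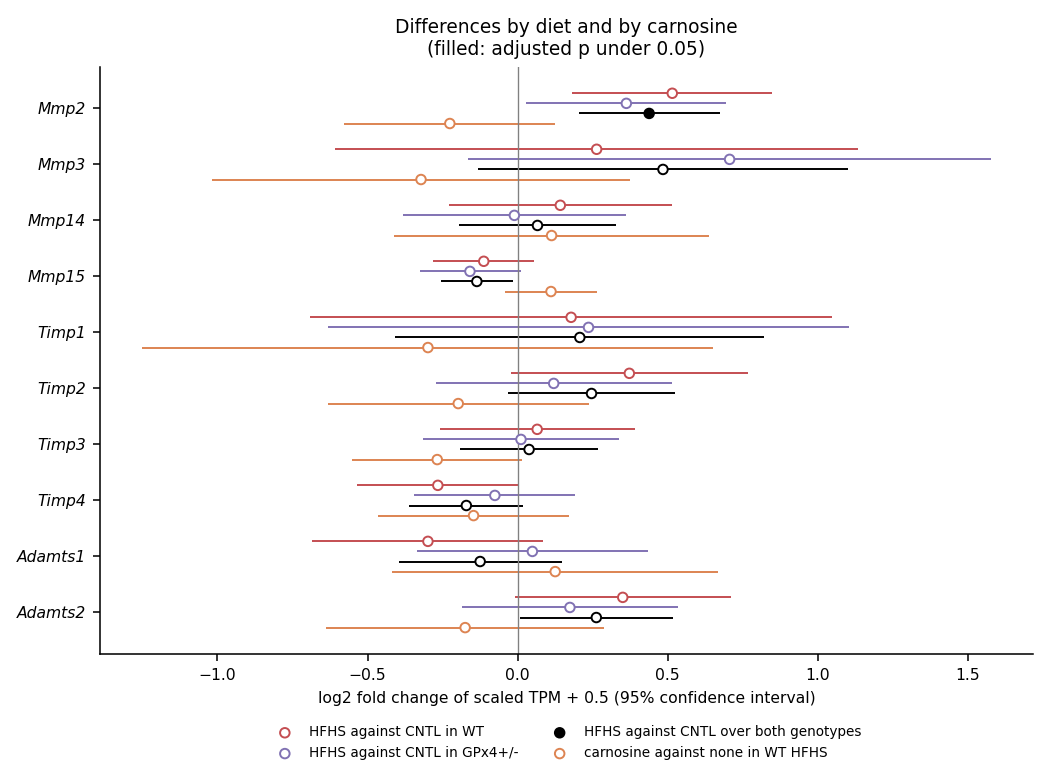
Log2 fold change of scaled TPM + 0.5 (horizontal axis) with its 95% confidence interval for each gene (rows) by diet in each genotype, by diet over both and by carnosine in WT HFHS mice, where filled points have an adjusted p under 0.05. The filled point is Mmp2 by diet over both genotypes at 0.44, and the intervals of Mmp3 and Timp1 are the widest.

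The other MMPs did not pass the test by diet. Mmp15 was at 24.7, 26.5, 22.1, 28.5 and 24.9 scaled TPM in WT CNTL mice. In WT HFHS mice it was at 24.4, 23.9, 22.7, 22.6 and 23.1. All 5 WT HFHS mice were below the WT CNTL median, yet none was below the lowest WT CNTL mouse. Over both genotypes the difference was -0.14 on the log2 scale (95% confidence interval -0.26 to -0.02; adjusted p = 0.144, limma; exact permutation p = 0.0251), and the sign was negative in both genotypes. The cardiomyocyte sum differed by -0.115 in the same comparison and had r = 0.57 with Mmp15 over the 25 mice. Its part in the Mmp15 values was not tested. Mmp3 differed by 0.48 (-0.13 to 1.10; adjusted p = 0.331), with 7 of 10 HFHS mice above the CNTL median of their genotype. Mmp14, the activator of Mmp2, differed by 0.07 (-0.20 to 0.33; adjusted p = 0.798), with 4 of 10 HFHS mice above that median.

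None of the 4 inhibitors passed either. Timp2, which both aids Mmp2 activation and inhibits the enzyme, was at 28.5, 31.9, 56.4, 33.8 and 28.8 scaled TPM in WT CNTL mice. In WT HFHS mice it was at 38.0, 47.2, 35.1, 68.9 and 42.3. All 5 WT HFHS mice were above 4 of the WT CNTL mice, and replicate 3 of WT CNTL exceeded all but 1 of them. Over both genotypes the log2 fold change was 0.25 (95% confidence interval -0.03 to 0.53; adjusted p = 0.267, limma), and 9 of 10 HFHS mice were above the CNTL median of their genotype. Timp3 differed by 0.04 (-0.19 to 0.27) and Timp1 by 0.21 (-0.41 to 0.82).

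Timp4 did not pass the test, and its differences by diet were negative. It was at 27.3, 25.5, 22.7, 28.5 and 26.4 scaled TPM in WT CNTL mice. In WT HFHS mice it was at 25.4, 19.3, 24.3, 19.0 and 20.6. All 5 WT HFHS mice were below the WT CNTL median and 3 were below all WT CNTL mice. The log2 fold change was -0.27 in WT (95% confidence interval -0.53 to 0.00, upper bound 0.003; adjusted p = 0.309, limma; exact permutation p = 0.0397) and -0.08 in GPx4+/- mice (-0.34 to 0.19). With 1 mouse left out the GPx4+/- value ran from -0.16 to 0.012, so its sign was not steady. The surrounding Syn2 gene differed by -0.36 over both genotypes (adjusted p = 0.0756), beside -0.17 for Timp4 (adjusted p = 0.258), and the part of Syn2 in the Timp4 values was not tested.

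The 2 ADAMTS genes did not pass the test by diet. Adamts2 was at 3.73, 3.99, 5.13, 3.69 and 3.56 scaled TPM in WT CNTL mice. In WT HFHS mice it was at 3.55, 6.09, 4.61, 9.28 and 4.09. Replicate 4 was the highest by a wide margin, and replicate 1 was below all WT CNTL mice. Over both genotypes its log2 fold change was 0.26 (95% confidence interval 0.01 to 0.52; adjusted p = 0.191, limma; exact permutation p = 0.0431), with 8 of 10 HFHS mice above the CNTL median of their genotype. With 1 mouse left out this Adamts2 value ran from 0.166 to 0.325, and the lowest over 31 alternatives was -0.026. Adamts1 differed by -0.30 in WT (-0.68 to 0.09), where 4 of 5 HFHS mice were below all CNTL mice and replicate 4 was above them all, and by 0.05 in GPx4+/- mice (-0.34 to 0.43), and its interaction was 0.35 (-0.20 to 0.89; adjusted p = 0.777, limma). The WT value was -0.136 without WT HFHS replicate 1 and -0.441 without WT HFHS replicate 4.

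The second question was whether a lost Gpx4 allele moved these genes. No gene of the 10 passed in CNTL mice (0.0501% of all tested genes called), in HFHS mice (0.0501%) or over both diets (0.0584%). Over both diets the log2 fold changes lay between -0.14 for Mmp3 and 0.09 for Mmp14. The intervals were narrow for Mmp15 (-0.06 to 0.18) and Timp4 (-0.26 to 0.12) and wide for Mmp3 (-0.76 to 0.47) and Timp1 (-0.64 to 0.59).

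The third question was whether carnosine moved these genes in WT HFHS mice. None passed, and 0 of all 11984 tested genes did (0% called; 505 had an unadjusted p under 0.05). Mmp2 was at 23.9, 26.1, 30.2, 21.3 and 23.1 scaled TPM with carnosine, within or below the range of 22.9 to 40.7 without it. Its log2 fold change was -0.23 (95% confidence interval -0.58 to 0.13; exact permutation p = 0.286). Without WT HFHS replicate 4 the value was -0.105.

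Timp3 had the smallest p of the 10 genes with carnosine. It was at 102, 99.7, 105, 125 and 105 scaled TPM in WT HFHS mice. In WT HFHS + Carnosine mice it was at 82.6, 104, 97.3, 105 and 63.0. All 5 carnosine mice were below the WT HFHS median, and 3 were below all WT HFHS mice. Its log2 fold change was -0.27 (95% confidence interval -0.55 to 0.02; adjusted p = 0.947, limma; exact permutation p = 0.0873), and it was -0.145 without WT HFHS + Carnosine replicate 5. The sum of 8 adipocyte markers, 3 of which passed the filter, differed by -0.30 with carnosine (exact permutation p = 0.151). Plin4 made up 91.9% of that sum, and its part in the Timp3 values was not tested. The differences of the other inhibitors did not pass the test. Timp1 differed by -0.30 (-1.25 to 0.65) and by 0.10 without WT HFHS replicate 4. Timp2 differed by -0.20 (-0.63 to 0.24) and by -0.045 without the same mouse. Timp4 differed by -0.15 (-0.46 to 0.17) and by -0.035 without WT HFHS + Carnosine replicate 5. The median over the 10 genes was -0.19 beside -0.001 over all tested genes.

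Mmp2, Mmp14 and Timp2 form the complex described above, so their levels were compared mouse by mouse. Mmp2 and Timp2 varied together over the 25 mice, with Pearson's r = 0.789 and Spearman's rho = 0.798 (adjusted p = 3e-05 and 6e-05, permutation tests over 3 pairs). The raw p of Pearson's r, 1e-05, is the smallest that 100000 permutations can give. Without WT HFHS replicates 2 and 4, which were farthest from the median of Mmp2, r was 0.726, and r of the deviations from the group means was 0.805. Both genes also varied with the fibroblast sum over the same 25 mice, at r = 0.789 for Mmp2 and 0.940 for Timp2. With the macrophage sum r was 0.785 and 0.81, and with the endocardium, vein and valve sum 0.639 and 0.833. With the cardiomyocyte sum r was -0.754 and -0.56. All are given as a description, and the part of these sums in the relation of Mmp2 and Timp2 was not tested. Mmp2 and Mmp14 had r = 0.443 (adjusted p = 0.039, permutation test) and rho = 0.291 (adjusted p = 0.234), and r was 0.252 without the same mice. For their deviations from the group means, r was 0.501 and rho 0.433 (adjusted p = 0.0151 and 0.0465, permutation tests), and r was 0.444 without WT CNTL replicate 3 and WT HFHS replicate 4. Mmp14 and Timp2 had r = 0.230 and rho = 0.0615 (adjusted p = 0.269 and 0.767, permutation tests).

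**Figure D3:**
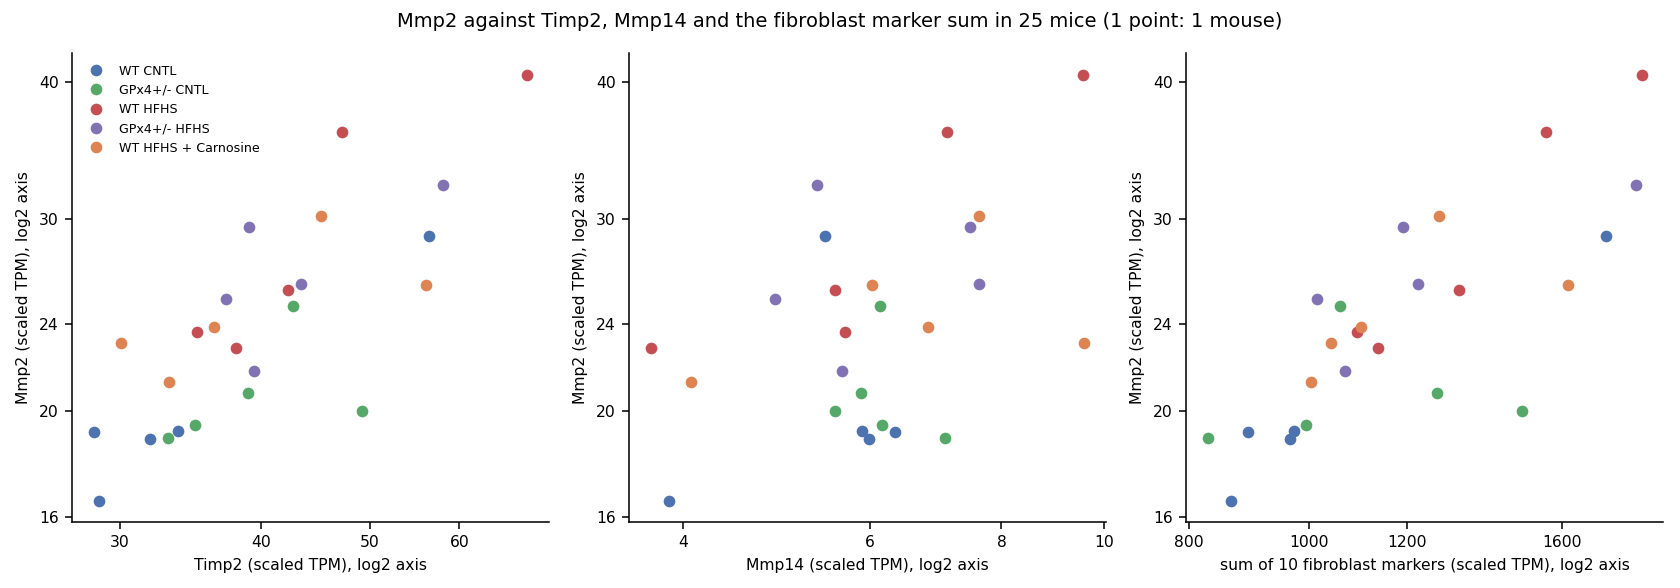
Mmp2 (vertical, log2 axis, scaled TPM) against Timp2, Mmp14 and the sum of 10 fibroblast markers (horizontal, log2 axes, scaled TPM), 1 point per mouse coloured by group. Mmp2 and Timp2 rise together over the 25 mice (r = 0.789), as do Mmp2 and the fibroblast sum (also r = 0.789), and the cloud against Mmp14 is wider (r = 0.443). WT HFHS replicate 4 is at the top right of each panel.

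The ratio of Mmp2 to Timp2 was 0.407 to 0.768 over all mice. Its mean was 0.583 ± 0.0572 in WT CNTL and 0.647 ± 0.0725 in WT HFHS mice, and 0.530 ± 0.0712 and 0.628 ± 0.0873 in GPx4+/- mice on the same diets (SD, n = 5). With carnosine it was 0.639 ± 0.110. The ranges of CNTL and HFHS mice overlapped within each genotype, as did those with and without carnosine.

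Among all pairs of the 10 genes, r ran from -0.57 between Mmp15 and Timp3 to 0.86 between Mmp2 and Adamts2. Mmp2, Mmp3, Timp1, Timp2 and Adamts2 had positive r with each other, between 0.62 and 0.86. Mmp15 and Timp4 had a negative r with each of those genes. These values are a description, since the points share their libraries and the tissue's mix of cells.

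**Figure D4:**
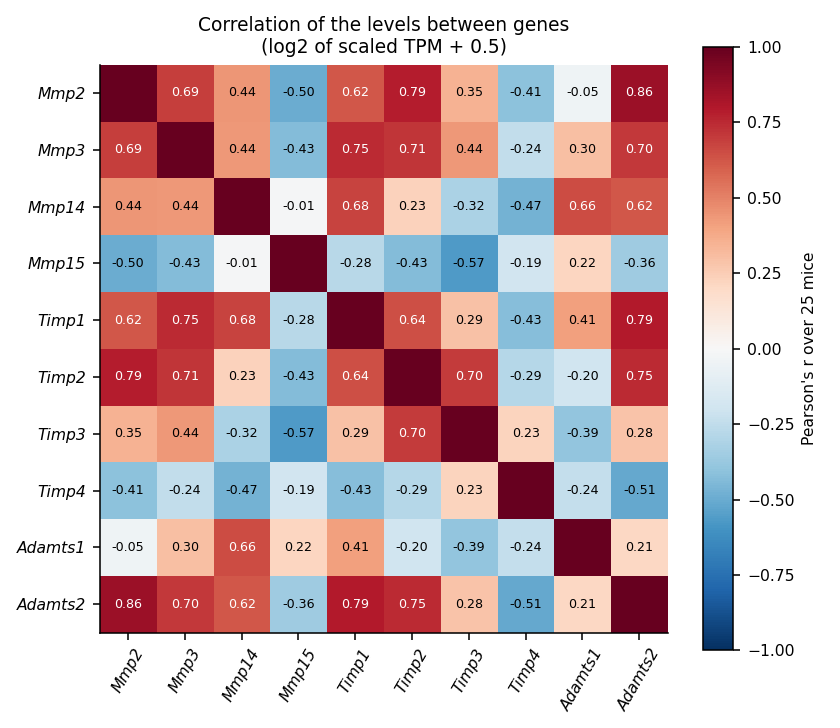
Pearson's r of log2(scaled TPM + 0.5) over 25 mice for each pair of the 10 genes (rows and columns), coloured from -1 to 1. Mmp2, Mmp3, Timp1, Timp2 and Adamts2 form a block with r between 0.62 and 0.86, and Mmp15 and Timp4 are negative with each of these genes.

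Each gene was also set beside the tested genes most like it over the 25 mice, by Pearson's r of the levels. Mmp2 and Adamts2 both had Col1a2, a chain of type I collagen, as the most like gene, at r = 0.927 and 0.939. For Timp2 it was Dcn, the proteoglycan decorin, at 0.938. Entpd2 and Ssc5d followed for Mmp2 (0.920 and 0.915), Antxr1 and Tgfb3 for Adamts2 (0.916 and 0.911), and Rnase4 and Col14a1 for Timp2 (both 0.921). Col1a2 and Dcn are also in the fibroblast marker list above.

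The remaining genes had other neighbours. For Mmp14 they were Fbn1, which encodes fibrillin-1, at 0.878, Loxl2 at 0.845 and Msn at 0.819. Mmp3 was most like Mgp (0.867), Pdgfrl (0.863) and Nbl1 (0.856), and Timp1 was most like S100a11 (0.858), Fstl1 (0.849) and Fxyd5 (0.847). Timp3 was most like Fmo2 (0.882), Fam107a (0.882) and Spock2 (0.874), and Adamts1 was most like Tnfrsf12a (0.859), Tlr4 (0.847) and Spsb4 (0.815). For Timp4 they were Mospd1 (0.787), Pfdn2 (0.768) and Ccdc85a (0.723), and for Mmp15 they included Cacnb2 (0.716) and Zfp536 (0.697).

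Promoter sequences of 9 of the 10 genes were found in the RefSeq set of build GRCm38.p6, all but Mmp2. The 250 bases before the start site of that set were searched on both strands for the GC box (GGGCGG) and the AP-1 site (TGANTCA). A GC box was present in 7 of the 9, against 32.7% of all 32851 promoter windows of that length, with 5 in Adamts2, 3 in Adamts1, 2 in Mmp14 and 1 each in Mmp15, Timp1, Timp2 and Timp3. An AP-1 site was present in Mmp3 only, against 6.75% of all windows. The windows of Timp2 and Adamts2, which varied most closely with Mmp2 among the 10 genes, are shown with GC boxes of either strand in capitals.
Timp2: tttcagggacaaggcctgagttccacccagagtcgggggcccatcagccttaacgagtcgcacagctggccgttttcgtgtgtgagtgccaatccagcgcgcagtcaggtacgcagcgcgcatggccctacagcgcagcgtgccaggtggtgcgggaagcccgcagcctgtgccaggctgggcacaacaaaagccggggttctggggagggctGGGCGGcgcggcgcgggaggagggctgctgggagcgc
Adamts2: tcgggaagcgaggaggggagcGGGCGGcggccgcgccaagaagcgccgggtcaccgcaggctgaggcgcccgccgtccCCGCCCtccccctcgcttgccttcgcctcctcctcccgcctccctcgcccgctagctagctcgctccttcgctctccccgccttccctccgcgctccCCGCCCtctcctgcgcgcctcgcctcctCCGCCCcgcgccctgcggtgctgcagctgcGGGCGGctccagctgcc

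The Timp2 window is at chr11:118355412-118355661 (minus strand) and the Adamts2 window at chr11:50601835-50602084 (plus strand). Their GC content was 68.0% and 78.0%, beside a median of 52.4% over all windows and 37.6% for Mmp3. A match describes these letters alone. In GENCODE M21 the Timp2 gene spans chr11:118301069-118355740, so the Timp2 window, placed by the RefSeq start, lies inside that gene.

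Genes that work with or beside the 10 were counted from lists, by diet over both genotypes, where 8.33% of all tested genes were called. Of 19 other MMPs, 4 passed the filter and none was called. Mmp9, gelatinase B, had a mean of 0.387 scaled TPM, Mmp12 had 0.327 and Mmp13 had 0.131, all under the filter, and Mmp1b and Mmp7 were listed at 0 in every mouse. Of 22 other ADAMTS and ADAMTS-like genes, 11 were tested and 1 rose, Adamtsl5 (log2 fold change 0.22, adjusted p = 0.0407, limma). Of 7 ADAM proteases, membrane-anchored relatives, 5 were tested and 2 rose, Adam9 (0.19, adjusted p = 0.00565) and Adam19 (0.40, adjusted p = 0.0493).

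Further lists held the regulators, other matrix proteases and substrates. Among 12 tested of 16 activators, clearance receptors and other inhibitors, 1 rose, Pcsk6, a proprotein convertase (0.23, adjusted p = 0.00352, limma), which also passed in WT alone (0.31, adjusted p = 0.0225). Among 11 tested of 12 other proteases and procollagen processing genes, 3 rose, the lysosomal cathepsins Ctsb (0.16, adjusted p = 0.000651) and Ctsd (0.20, adjusted p = 0.0226) and the secreted serine protease Htra3 (0.46, adjusted p = 0.0058). Htra3 also passed in WT alone (0.60, adjusted p = 0.0336), and Ctsb (0.18, adjusted p = 0.0108) and Adam9 (0.25, adjusted p = 0.0199) in GPx4+/- mice. Among 14 tested of 16 substrates, 1 rose, Nid1, the basement membrane protein nidogen-1 (0.18, adjusted p = 0.018), and the median log2 fold change of that list was 0.25. Its genes Col1a1, Col1a2, Col3a1 and Dcn are also fibroblast markers above, whose sum differed by 0.27 in this comparison. The part of that sum in the substrate values was not tested. No gene of these lists was called as lower by diet, and none was called with carnosine. The direction of calls by diet over both genotypes depended on the scaling. With TPM as deposited, 19.9% of all called genes were higher on HFHS, against 56.2% here. These lists were not counted under that scaling.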

How the data were processed

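RNA of 25 mouse hearts, left ventricular tissue per the extraction protocol, was analysed. The authors deposited TPM per transcript and library. The submitters' processing notes name kallisto 0.43.1, sleuth 0.30.0 and GRCm38, and the paper describes alignment and count tests of its own. Columns were matched to mice by the library names in the header, since the column positions given with the samples disagree with them. TPM were summed per gene by GENCODE M21 (116772 of 119215 transcripts matched), divided by median-ratio factors (0.864 to 1.157) and taken as log2 after adding a pseudocount of 0.5. Genes with a mean of at least 1 were tested with limma 3.58.1 in R 4.3.3, in a fit of 20 mice without carnosine and a fit of 10 WT HFHS mice, with Benjamini-Hochberg adjustment over 11984 genes and a threshold of 0.05. TPM are not counts, so no count test was used. Single values got a two-sided exact permutation test. The test was checked on simulated data.

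The members and lists were chosen with earlier results of these data known. Named genes were the 10 members, genes of the lists with an adjusted p under 0.05, and the 3 genes most like each member, of which 1 is not reported here. Replicates are different mice. Alternatives were another scaling, pseudocount or filter, protein coding transcripts only, all 25 mice in 1 fit, a replicate block and each mouse left out. Leaving out mice by markers and the fibroblast covariates were chosen after seeing the data. Precision was limited by 5 mice a group and by a depth that TPM does not keep. Mitochondrial genes took 31.3% to 48.7% of TPM.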

Additional observations from a re-analysis of the deposited data

Results flagged for a closer look

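Of 50 sets of 5 values (10 genes in 5 groups), 5 had a mouse far from the other 4 of its group, where chance gives about 1 in 20 (2.5). WT CNTL replicate 3 was the highest of its group in 3 of them. Its Mmp2 level was 28.9 scaled TPM beside a next value of 19.2, a gap of 0.79 of the group's range. Timp2 in that mouse was at 56.4 beside 33.8 (0.809 of the range), and Adamts2 was at 5.13 beside 3.99 (0.73 of the range). This mouse also had the highest fibroblast sum (1738), atrial marker sum (4833) and sum of endocardium, vein and valve markers (200.1, beside 31.07 to 55.52 in the others) of WT CNTL. Its sums of macrophage (177.4), adipocyte (99.98) and immediate early response markers (163.3) were the highest of WT CNTL too. The part of all these sums in its values was not tested.

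WT HFHS replicate 4 was the highest of its group in the other 2. Its Timp1 level was 10.8 scaled TPM beside a next value of 3.45, a gap of 0.79 of the range, and Timp3 was at 124.5 beside 105.3 (0.774 of the range). It was the highest of WT HFHS in the sums of endocardium, vein and valve markers (235.9, beside 31.78 to 118.3 in the others), fibroblast markers (1855), macrophage markers (221.5) and smooth muscle and pericyte markers (1465), and their part in its values was not tested. Des alone made up 61.5% of the smooth muscle and pericyte sum over all mice.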

How the results depend on the processing

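The count of called members kept its value under most alternatives. By diet over both genotypes, 1 became 0 with TPM as deposited and 0 with no filter, where Mmp2 stayed at 0.44 on the log2 scale (adjusted p = 0.0544, limma) with 25860 genes tested. It was also 0 with the equal-weight fibroblast covariate (Mmp2 at 0.15). In the 20 fits that left out 1 mouse the count stayed at 1, with Mmp2 between 0.38 and 0.50 (adjusted p between 0.00553 and 0.0397). Over all 32 alternatives the adjusted p of Mmp2 ran from 0.00553 to 0.0999. In WT alone, the count of 0 ran from 0 to 1 with 1 mouse left out, and was 1 without the 4 mice with high atrial markers; for Mmp2 the adjusted p over those 22 alternatives ran from 0.0356 to 0.441. Of 2036 values of single members under alternatives, 2031 stayed on their side of the threshold and 182 had another sign, none of them called. Only 1 of the 80 main values was called and most others were far from the threshold, so that share says little. The changes of side were all for Mmp2 by diet, in 3 of 32 alternatives over both genotypes and 2 of 22 in WT. Counts over all genes moved more. For diet in WT, 142 became 38 with TPM as deposited, 46 with no filter, 77 without WT CNTL replicate 3 and WT HFHS replicate 4, and 36 to 202 with 1 mouse left out. In GPx4+/- mice, 400 became 235 with no filter, 668 with the fibroblast sum as a covariate and 191 to 484 with 1 mouse left out, and 8.73% of 424 calls were higher with TPM as deposited, which moves the median of all genes by -0.101, against 65.2%. For genotype over both diets, 7 became 4 with a minimum of 5. The sample titles give no pairing of mice by replicate number. Of 50 pairs of same-numbered mice, 9 correlated above 0.1 (r -0.341 to 0.234). Pairs with different numbers were not compared, so these values cannot decide whether the numbers pair the mice. With the replicate block the count of called members stayed at 1 over both genotypes (Mmp2 adjusted p = 0.0294, limma) and at 0 elsewhere. The calls for diet in WT then became 68. The causes of the other changes were not tested.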
